A study of Mus musculus with 6 samples.

Results

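The genes described here are the cyclins, cyclin-dependent kinases (CDKs), CDK inhibitors, E2F factors, pocket proteins and other named regulators of the cell division cycle. They were chosen by gene symbol from the deposited table of genes that the authors called different between ID8 and KMF tumorspheres, with Ccnd1 and Cdkn1a left out. This gave 63 of the 7320 listed genes. In the GENCODE M21 annotation 102 protein coding symbols fit the same name pattern, and the 39 that the table does not list, among them Cdk6, Ccnd3, Cdkn1b, Cdkn2a, E2f3 and E2f4, were not analysed here. The pattern also covered the BTG genes, and 0 of the 63 were BTG genes.

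The ID8 line came from the ovarian epithelium of the C57Bl6 mouse strain, became immortal spontaneously in culture, and is a clone. KMF, which the labels also call ID8-IP, was recovered from abdominal fluid after ID8 cells had been injected into mice and formed tumors, and its DNA carries gains that include the gene of focal adhesion kinase. Both lines were grown untreated for 5 days as tumorspheres, floating cell clusters in serum-free 3D medium, and 3 RNA samples of each were taken at passages 23, 24 and 35 for ID8 and 14, 17 and 22 for KMF. Each KMF sample was thus at a lower passage than each ID8 sample, so line and passage cannot be told apart. The study's methods describe the RNA samples as independent, but each line is 1 isolate. The p-values therefore measure the spread between samples of a line and not between isolates.

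Cyclins bind and activate CDKs, and successive cyclin-CDK complexes drive cells from G1 into S phase and then into mitosis. Before S phase the pocket proteins (Rb1, Rbl1 and Rbl2) hold E2F factors in check, and phosphorylation by CDKs releases E2F to switch on genes of DNA replication. Later in the cycle the MuvB core, with Mybl2 and then Foxm1, activates the genes of mitosis, whereas with Rbl1 or Rbl2 and a repressive E2F it forms the DREAM complex that silences them in resting cells. The anaphase-promoting complex (APC/C) and SCF ubiquitin ligases mark cyclins and other regulators for destruction.

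Libraries held between 23108407 and 33212313 fragments on genes. Of the 63 genes, 60 had a mean FPKM (fragments scaled to gene length and library total) above 1 in both lines. E2f7 passed that level in KMF alone, and Cdkn1c and Myb were at or below it in both. The counts were refitted with edgeR, and a gene is termed called when its adjusted p-value was under 0.05. For 25 of the 63 genes an exon overlaps an exon of another annotated gene, and for 8 of them more than 10% of the exon bases are shared with a single neighbouring gene (Ccna2, Ccne2, Cdk4, Cdkn1c, E2f8, Rbl2, Cdc25c and Anapc15). Whether counting used strand was not stated, so reads from the exon bases that those genes share with their neighbours cannot be told apart. The processed pseudogenes Ccnb1-ps and Ccnb2-ps could likewise share reads with Ccnb1 and Ccnb2. So could Anapc15-ps, which the annotation types as protein coding, with Anapc15.

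To compare the cycle regulators between the lines, each role was examined in turn. Of the 63 genes, 48 (76.2%) were called higher in KMF, 12 (19.0%) were called lower, 2 (Ccng1 and Ccng2) were fitted but not called, and Myb was removed by the filter on low counts. Across all 6967 fitted genes 92.9% were called, 45.4% higher and 47.5% lower, because the table lists only genes the authors had already called on the same libraries. The share called at all is therefore set by the table. The genes were picked by symbol, but with earlier results of these data known, so their direction is a description and not independent evidence. The median log2 fold change was 1.03 over the 62 fitted cycle genes and -0.23 over all fitted genes. The median over all genes changed sign with the treatment of low counts, to 0.20 both under a filter of 10 counts in every library and with limma on log2(FPKM + 1), while that of the cycle genes was 0.98 and 0.91. A rise of at least 2-fold was called for 32 of the cycle genes, against 18.0% of all fitted genes, and a fall of at least 2-fold for 2 of them (Cdk14 and Cdkn1c), against 22.5%. The lines did not overlap in CPM (counts scaled to the library total) for 62 of the 63 genes (98.4%), near the 96.6% of all fitted genes. RNA was taken from whole cultures, so more cells in a phase of the cycle and more RNA per cell cannot be told apart.

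**Figure D1:**
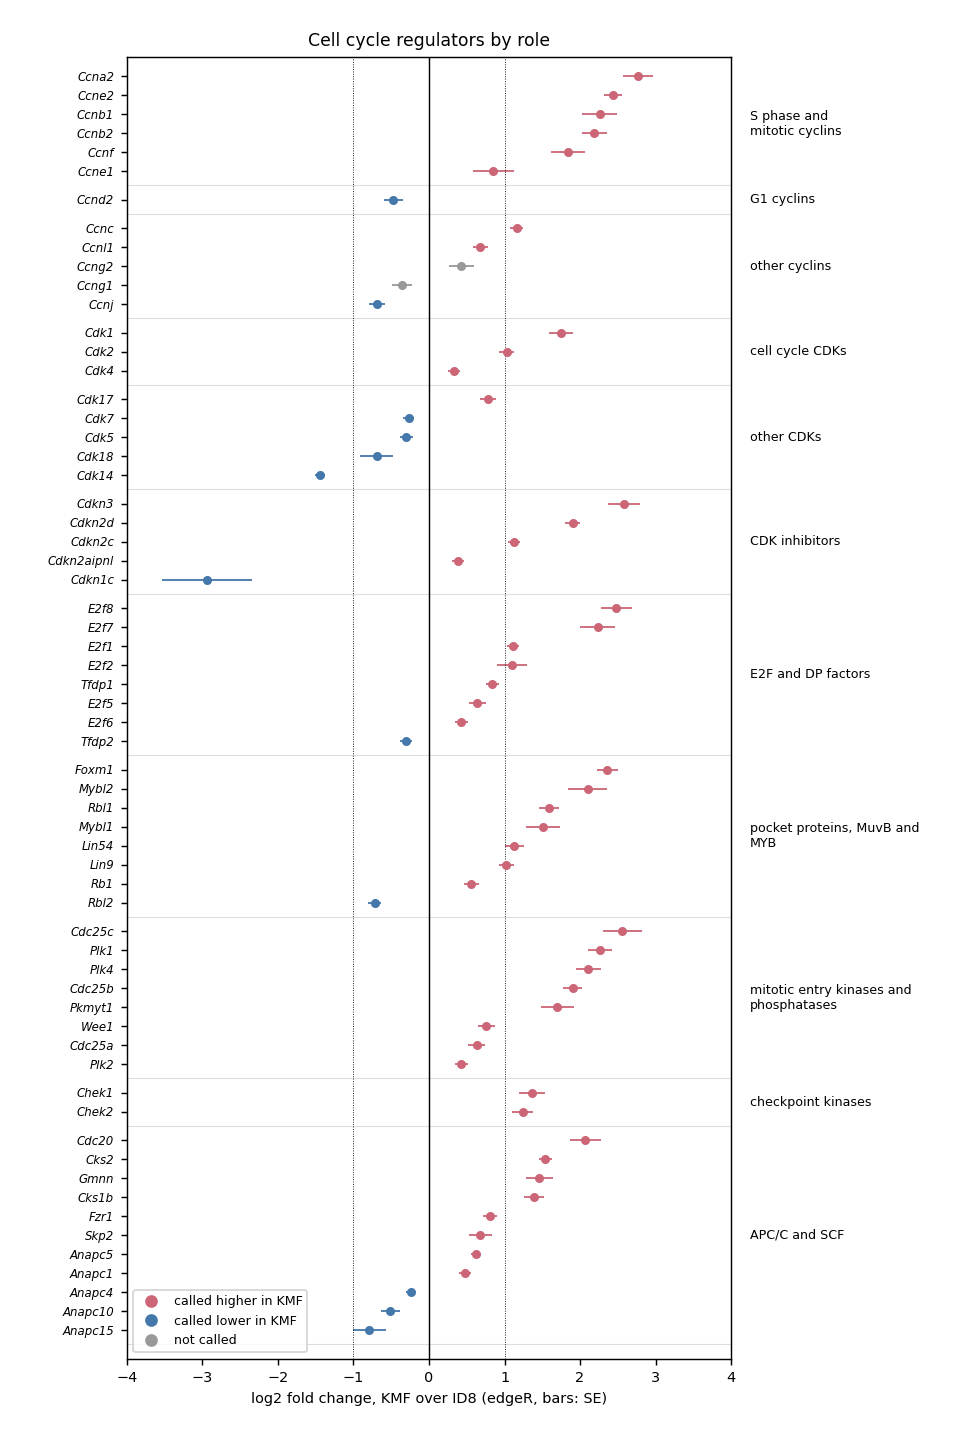
Log2 fold change of KMF over ID8 for the 62 fitted cycle regulators, grouped by role, with bars for the SE and dotted lines at a 2-fold change (3 libraries a line). The S phase and mitotic cyclins and the mitotic entry kinases and phosphatases lie to the right of 0 without exception, whereas 4 of the 5 other CDKs lie to the left.

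The promoters of 4 of the strongly raised genes are shown because they hold the cell cycle genes homology region (CHR), the element through which MuvB complexes bind mitotic genes. Each line gives the 120 bases before the RefSeq start site on GRCm38.p6, 5′ to 3′ on the gene's strand, with the CHR letters TTTGAA or TTCGAA and the CCAAT box, on either strand, in capitals.
Cdc20, chr4:118437344-118437463, minus strand: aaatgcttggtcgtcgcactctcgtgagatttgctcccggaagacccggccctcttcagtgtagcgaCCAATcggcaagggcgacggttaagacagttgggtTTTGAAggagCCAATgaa
Cdk1, chr10:69352913-69353032, minus strand: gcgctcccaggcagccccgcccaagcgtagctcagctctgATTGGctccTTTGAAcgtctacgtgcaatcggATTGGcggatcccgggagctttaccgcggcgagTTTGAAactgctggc
Cdkn3, chr14:46760421-46760540, plus strand: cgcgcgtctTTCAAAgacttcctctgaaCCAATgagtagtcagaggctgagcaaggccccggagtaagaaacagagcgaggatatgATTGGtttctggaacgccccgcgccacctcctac
E2f8, chr7:48881597-48881716, minus strand: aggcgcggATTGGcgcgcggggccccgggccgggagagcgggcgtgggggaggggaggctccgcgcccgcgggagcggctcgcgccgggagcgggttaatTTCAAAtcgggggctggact
The Cdk1 stretch holds 2 CHR matches and 2 CCAAT boxes, Cdc20 and Cdkn3 hold 1 and 2, and E2f8 holds 1 of each. In Cdc20, Cdk1 and E2f8 a CHR match begins 18, 15 and 20 bases before the start site, and in Cdkn3 it begins 111 bases before it. The deposited intervals of Cdk1 and Cdc20 end at 69352938 and 118437352, so the last bases of these stretches lie inside them. Rbl2, a gene that was lower in KMF, has a match 201 bases before its start, shown with its surroundings.
Rbl2, chr8:91069844-91069873, plus strand: ggtctttttctcTTCAAAcgagccttctga

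RefSeq promoters were matched by symbol for 48 of the 63 genes, and the 250 bases before each start site were searched on both strands. Of the 32 genes called at least 2-fold higher 24 were matched, and the shares below leave out Ccna2, Ccne2, Foxm1, Cdc25c, Gmnn, Mybl1, Lin9 and Pkmyt1. A CHR match was present in 9 of 24 genes (37.5%) called at least 2-fold higher, in 1 of 12 (8.33%) called higher by less, and in 1 of 9 (11.1%) called lower. The same letters were found in 15.0% of 5144 fitted genes and in 19.6% of 27025 genes in the RefSeq table. Matches within 100 bases of the start stood in 25% of the genes at least 2-fold higher, against 5.03% of fitted genes and 7.18% of all genes. They stood in 8.33% of the genes called higher by less. The CCAAT box was present in 75% of the genes at least 2-fold higher, against 41.9% and 37.5%. It was present in 41.7% of the genes called higher by less and in 33.3% of the lower genes. E2F motifs were searched as TTCCCGC, next as TTGGCGC, further as TTCGCGC and lastly as TTGCCGC. At least 1 of them was found in 37.5% of the genes at least 2-fold higher, in 25% of those called higher by less and in 0 of the 9 lower genes, against 16.4% and 9.01%. Both a CHR match and a CCAAT box were found in 9 of the 24 genes at least 2-fold higher (37.5%) and in 8.33% of those called higher by less, against 7.41% of fitted genes. Where TTGGCGC follows an A it overlaps ATTGG, the reverse of the CCAAT box, as in E2f8. These matches describe the sequence and not factor binding.

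The cyclins of S phase and mitosis showed the highest median of the roles. All 6 were called higher in KMF and their median log2 fold change was 2.23. Ccna2 (ENSMUSG00000027715, chromosome 3, 36564866 to 36572150), which encodes the cyclin A that partners Cdk2 in S phase and Cdk1 in G2, had FPKM values of 10.3, 11.9 and 7.23 in ID8 replicates 1, 2 and 3 and 59.5, 59.2 and 77.4 in KMF. Each KMF library was far above each ID8 library, the fold change was 6.82 (log2 2.77 ± 0.20, SE, n = 3 a line) and the edgeR adjusted p was 5.05e-05. Ccne2 (chromosome 4, 11191351 to 11204779), a cyclin E that activates Cdk2 at the entry to S phase, had 3.23, 3.53 and 3.95 FPKM in ID8 and 16.5, 20.0 and 19.7 in KMF. Its log2 fold change was 2.43 ± 0.12 (edgeR adjusted p = 1.19e-05). Ccnb1 (chromosome 13, 100778650 to 100786570), the cyclin B of the mitotic Cdk1 complex, had 16.1, 17.0 and 9.19 FPKM in ID8 and 62.8, 59.3 and 75.8 in KMF. ID8 replicate 3 was the lowest and KMF replicate 3 the highest of the 6 libraries for Ccnb1 and for Ccna2, but ID8 replicate 3 was the highest ID8 library for Ccne2. Log2 fold changes of Ccnb1, its relative Ccnb2 and the SCF cyclin Ccnf were 2.26 ± 0.23, 2.19 ± 0.16 and 1.84 ± 0.22.

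Ccne1, the other cyclin E, rose less than Ccne2. Its FPKM means were 2.49 ± 0.839 (SD, n = 3) in ID8 and 4.36 ± 0.326 in KMF, its log2 fold change was 0.85 ± 0.27 and the edgeR adjusted p was 0.0395. That call was lost without KMF replicate 1, 2 or 3, under upper quartile scaling and under a filter of 10 counts in every library, with adjusted p-values between 0.0167 and 0.0925 over all alternatives.

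The cyclins outside S phase and mitosis moved in both directions. Ccnd2 (chromosome 6, 127125779 to 127151048), a D-type cyclin that activates Cdk4 in G1, had 107, 120 and 87.9 FPKM in ID8 and 71.8, 73.0 and 75.9 in KMF. The ID8 values all lay above the KMF values and Ccnd2 was called lower (log2 -0.47 ± 0.12, edgeR adjusted p = 0.0157). The call was lost without ID8 replicate 1 and without KMF replicate 2. Ccnc, the cyclin of the Mediator kinase module, was close to uniform within KMF at 17.9, 18.0 and 18.0 FPKM, against 7.69, 7.95 and 9.17 in ID8 (log2 1.16 ± 0.09). Ccnl1, a cyclin linked to splicing, had 12.9, 10.6 and 11.9 FPKM in ID8 and 16.6, 18.1 and 20.4 in KMF (log2 0.68 ± 0.10). Ccnj was called lower, from 4.59, 4.47 and 4.23 FPKM in ID8 to 2.72, 2.57 and 2.70 in KMF (log2 -0.69 ± 0.11).

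Cyclin G genes, which are linked to p53 and to growth arrest, were the fitted genes without a call. Ccng1 had 95.3, 120 and 94.9 FPKM in ID8 and 69.2, 79.8 and 86.7 in KMF. Its log2 fold change was -0.36 ± 0.13, with an edgeR adjusted p of 0.0577. It passed the threshold in 7 of 14 alternatives, among them DESeq2, limma and library totals alone. Ccng2 had 8.01, 9.56 and 9.92 FPKM in ID8 and 8.84, 13.8 and 13.3 in KMF, and its libraries were the sole ones of the 63 genes to overlap between the lines (log2 0.43 ± 0.17, edgeR adjusted p = 0.0967). Ccng2 was called higher without KMF replicate 1 (log2 0.62, edgeR adjusted p = 0.00678) and with a replicate block (log2 0.41, edgeR adjusted p = 0.0292).

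**Figure D2:**
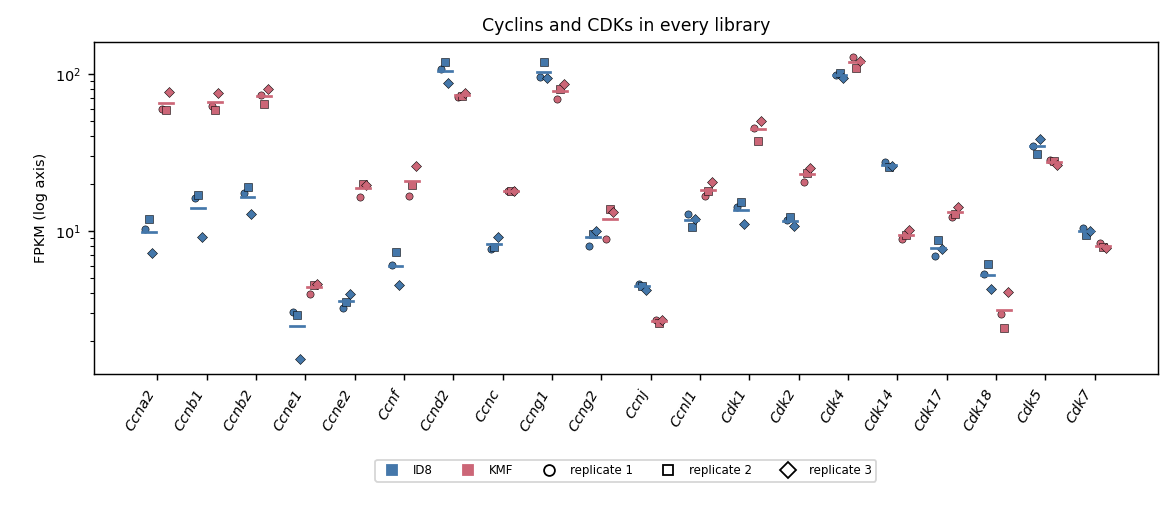
FPKM (log axis) of the 12 listed cyclins and 8 listed CDKs in each library, with ID8 in blue, KMF in red and a bar at the mean of 3 libraries. Ccna2 rises from between 7.23 and 11.9 to between 59.2 and 77.4, while Ccnd2, Ccnj and Cdk14 lie lower in KMF and Ccng2 overlaps.

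Among the listed CDKs, the 3 cell cycle CDKs (Cdk1, Cdk2 and Cdk4) were called higher in KMF, as were 45.4% of all fitted genes. Of the 5 others 4 were called lower, against 47.5% of all fitted genes. Cdk1 (chromosome 10, 69336635 to 69352938), the kinase of mitosis, had 14.3, 15.4 and 11.1 FPKM in ID8 and 45.4, 37.5 and 50.4 in KMF (log2 1.75 ± 0.16, edgeR adjusted p = 0.000114). Cdk2 had 11.8, 12.3 and 10.8 FPKM in ID8 and 20.6, 23.3 and 25.3 in KMF (log2 1.03 ± 0.10). Cdk4, the G1 partner of D-type cyclins, was among the highest genes in FPKM in both lines, at 98.8, 101 and 94.2 in ID8 and 129, 110 and 121 in KMF. Its rise was small (1.26-fold, log2 0.33 ± 0.08, edgeR adjusted p = 0.0146) and was not called without ID8 replicate 1 or under upper quartile scaling.

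Of 14 annotated other CDKs 5 were listed, and 4 of these were called lower. Only 2 were called lower without KMF replicate 1 or 3. Cdk14 alone was called lower without ID8 replicate 1, without KMF replicate 2 or with a replicate block. Cdk14 (chromosome 5, 4803391 to 5420312), a kinase that with cyclin Y acts on Wnt receptors at the membrane, had 27.5, 25.5 and 26.1 FPKM in ID8 and 8.82, 9.39 and 10.1 in KMF, a 2.72-fold fall (log2 -1.44 ± 0.07, edgeR adjusted p = 1.43e-05). Its values varied little within either line. Cdk18 had 5.32, 6.13 and 4.26 FPKM in ID8 and 2.95, 2.39 and 4.10 in KMF (log2 -0.69 ± 0.22, edgeR adjusted p = 0.0399), so that ID8 replicate 3 and KMF replicate 3 lay close together. Cdk5, a kinase best known in neurons, and Cdk7, the CDK-activating kinase, fell by 0.30 ± 0.09 and 0.27 ± 0.07 on the log2 scale. The median over all fitted genes was -0.23, or 0.20 under a filter of 10 counts in every library. Cdk17 was the exception among the 5, with 6.97, 8.81 and 7.70 FPKM in ID8 and 12.3, 12.9 and 14.2 in KMF (log2 0.78 ± 0.11).

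The CDK inhibitors differed in direction. Cdkn2d (p19Ink4d, chromosome 9, 21288463 to 21291209) and Cdkn2c (p18Ink4c), which block Cdk4 and Cdk6, were both higher in KMF. Cdkn2d had 11.5, 11 and 10.1 FPKM in ID8 and 38.5, 40.5 and 39.3 in KMF (log2 1.90 ± 0.10, edgeR adjusted p = 1.23e-05). Cdkn2c had 27.7, 26.4 and 23.4 in ID8 and 54.0, 53.7 and 57.1 in KMF (log2 1.13 ± 0.08). Cdkn3 (chromosome 14, 46760541 to 46771525) bears an inhibitor's name but encodes a phosphatase that acts on CDKs, and had 5.44, 5.31 and 3.33 FPKM in ID8 and 27.3, 25.5 and 29.4 in KMF. Its log2 fold change was 2.58 ± 0.21. Cdkn2aipnl, which matched the name pattern but is no CDK inhibitor, rose by 0.38 ± 0.08 on the log2 scale.

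Cdkn1c (p57Kip2, chromosome 7, 143458350 to 143461050), an imprinted inhibitor of cyclin-CDK complexes, fell. It was represented by 34, 14 and 24 counts in ID8 and by 1, 1 and 7 in KMF, which is 0.597, 0.300 and 0.484 FPKM against 0.0220, 0.0224 and 0.109. On counts summed over a line and scaled to its library totals Cdkn1c was 8.06 times as high in ID8 as in KMF (95% exact interval 4.02 to 18.3, counting error only), and edgeR gave a log2 fold change of -2.94 ± 0.60 with an adjusted p of 0.00595. Without KMF replicate 3, which held most of the KMF counts, the log2 fold change was -4.17. Cdkn1c was low in both lines, and 30.7% of its exon bases overlap an antisense gene.

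Of the 8 E2F and DP factors 7 were called higher in KMF. The repressive E2fs E2f7 and E2f8, which are themselves E2F targets, rose most. E2f8 (chromosome 7, 48866429 to 48881596) had 2.0, 1.91 and 1.25 FPKM in ID8 and 8.10, 9.20 and 10.8 in KMF (log2 2.48 ± 0.20, edgeR adjusted p = 8.17e-05). E2f7 had 0.793, 0.734 and 0.470 in ID8 and 2.75, 2.81 and 3.61 in KMF (log2 2.23 ± 0.23). With limma on log2(FPKM + 1), whose pseudocount shrinks the change of low genes, that of E2f7 was 1.28. The activator E2f1 had 10.1, 10.5 and 11.3 FPKM in ID8 and 21.1, 22.7 and 23.3 in KMF (log2 1.11 ± 0.08), and unlike E2f7 and E2f8 it was not lowest in ID8 replicate 3. E2f2, the other listed activator, rose by a log2 fold change of 1.10 ± 0.20, and E2f5 and E2f6 by 0.64 ± 0.11 and 0.43 ± 0.09. The DP subunits that pair with E2Fs diverged. Tfdp1 rose by 0.84 ± 0.09 on the log2 scale, whereas Tfdp2 had 13.3, 12.4 and 12.8 FPKM in ID8 and 10.3, 10.8 and 9.35 in KMF (log2 -0.30 ± 0.08, edgeR adjusted p = 0.0194). The Tfdp2 call was lost without ID8 replicate 1 (log2 -0.28) and without KMF replicate 3 (log2 -0.22).

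The pocket proteins diverged as well. Rbl1 (p107, chromosome 2, 157145893 to 157204534) had 5.73, 5.92 and 4.66 FPKM in ID8 and 14.4, 15.2 and 18.1 in KMF, a 3.00-fold rise (log2 1.59 ± 0.13, edgeR adjusted p = 7.35e-05). Rbl2 (p130, chromosome 8, 91070057 to 91123844), the pocket protein that predominates in resting cells, had 15.4, 15.1 and 18.0 FPKM in ID8 and 9.17, 9.76 and 9.77 in KMF (log2 -0.72 ± 0.09, edgeR adjusted p = 0.000453). The order of these genes in FPKM was therefore opposite in the lines, with Rbl2 above Rbl1 in each ID8 library and below it in each KMF library. Rb1 rose by 0.56 ± 0.10 on the log2 scale.

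The activators of late cell cycle genes were higher in KMF. Foxm1 (chromosome 6, 128362967 to 128375893), a forkhead factor of G2 and mitosis, had 7.36, 7.18 and 5.68 FPKM in ID8 and 30.5, 31.6 and 38.7 in KMF (log2 2.36 ± 0.14, edgeR adjusted p = 2.18e-05). Mybl2 (B-Myb) had 2.59, 2.64 and 1.40 in ID8 and 7.83, 8.58 and 11.4 in KMF (log2 2.10 ± 0.26). Mybl1 rose by 1.51 ± 0.22 on the log2 scale, and the MuvB subunits Lin54 and Lin9 by 1.13 ± 0.13 and 1.02 ± 0.10. Myb, the member of this family best known in blood cells, had 2, 2 and 0 counts in ID8 and 7, 5 and 52 in KMF. Summed over a line and scaled to its library totals, Myb counts were 15.9 times as high in KMF (95% exact interval 5.91 to 60), but without KMF replicate 3 the ratio was 5.09 (1.54 to 21.7). These intervals cover counting error only, and leave out the spread between the KMF libraries, of which replicate 3 stood far above the others. Without the filter on low counts edgeR gave Myb a log2 fold change of 3.76 ± 1.09 (adjusted p = 0.0259).

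All 8 kinases and phosphatases of mitotic entry were called higher in KMF, and the median of their log2 fold changes was 1.8. Cdc25c (chromosome 18, 34732997 to 34751533), a phosphatase that activates Cdk1, had 2.57, 2.48 and 1.41 FPKM in ID8 and 10.7, 11 and 15.6 in KMF (log2 2.56 ± 0.26, edgeR adjusted p = 0.000221). Plk1 (chromosome 7, 122159437 to 122169875), the polo kinase of mitosis, had 13.3, 14.3 and 9.71 in ID8 and 53.9, 54.7 and 65.8 in KMF (log2 2.26 ± 0.16). Plk4, which starts centriole duplication, had 3.07, 3.82 and 3.27 in ID8 and 12.7, 12.7 and 17.4 in KMF (log2 2.11 ± 0.16). KMF replicate 3 was the highest library for these genes. The log2 fold change of Cdc25b was 1.90 ± 0.13, whereas Cdc25a, which acts from G1 on, rose by 0.63 ± 0.11 and Plk2, a polo kinase of stress and G1, by 0.43 ± 0.08. The kinases that restrain Cdk1 were also higher, Pkmyt1 by a log2 fold change of 1.70 ± 0.22 and Wee1 by 0.76 ± 0.11. Activators and inhibitors of Cdk1 thus rose together.

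The checkpoint kinases of the DNA damage response were both higher. Chek1 had 2.32, 2.69 and 1.86 FPKM in ID8 and 5.29, 5.42 and 6.44 in KMF (log2 1.36 ± 0.17, edgeR adjusted p = 0.000565). Chek2 had 4.86, 5.31 and 4.87 in ID8 and 10.9, 10 and 13.7 in KMF (log2 1.24 ± 0.14, edgeR adjusted p = 0.000364). Neither gene overlapped between the lines.

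Regulators of the APC/C and SCF ligases rose, while core subunits of the APC/C went both ways. Cdc20 (chromosome 4, 118432901 to 118437352), the APC/C activator of mitosis, had 21, 21.7 and 12.5 FPKM in ID8 and 73.9, 66.8 and 86.1 in KMF (log2 2.07 ± 0.21, edgeR adjusted p = 0.000216). Cks2 (chromosome 13, 51645232 to 51650660), a small adaptor of CDKs, had 45.1, 44.7 and 39.5 in ID8 and 113, 121 and 132 in KMF (log2 1.54 ± 0.09). Gmnn, which encodes geminin, the inhibitor of replication licensing that the APC/C destroys, had 13.8, 18.2 and 11.4 in ID8 and 36.9, 35.1 and 44.3 in KMF (log2 1.46 ± 0.18). Cks1b, a cofactor of the SCF receptor Skp2, rose by 1.39 ± 0.13 on the log2 scale, Fzr1 (the APC/C activator of G1) by 0.81 ± 0.09 and Skp2 by 0.68 ± 0.15. Of the core subunits, Anapc5 and Anapc1 rose by 0.62 ± 0.07 and 0.48 ± 0.08, whereas Anapc10, Anapc15 and Anapc4 were lower. Anapc10 had 5.92, 5.65 and 5.77 FPKM in ID8 and 4.19, 3.94 and 3.72 in KMF (log2 -0.51 ± 0.12, edgeR adjusted p = 0.0102). Anapc15 had 4.96, 3.47 and 6.14 in ID8 and 3.12, 2.36 and 2.70 in KMF (log2 -0.79 ± 0.22, edgeR adjusted p = 0.0238), shared 38.4% of its exon bases with Tomt, and lost its call without ID8 replicate 1 or 3 or KMF replicate 2 or 3. Anapc4 fell by 0.24 ± 0.06, and its call was lost in 6 of 14 alternatives.

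The number of lower calls fell when single libraries were left out. It was 12 with all libraries, 5 without ID8 replicate 1, 6 without KMF replicate 2 and 7 without KMF replicate 3. Calls over all genes fell as well, from 6470 to 5189, 5515 and 5351 in the same fits. Without ID8 replicate 1 the genes that lost a lower call had log2 fold changes between -0.24 and -0.78, near those with all libraries. Cdk14, Cdkn1c, Rbl2, Ccnj and Anapc10 stayed called lower in each of the 14 alternatives in which they were fitted. Calls were lost for Cdk18 in 5 of the 14, for Cdk5 in 6, for Cdk7 in 4 and for Tfdp2 in 2. The number of higher calls was between 44 and 49 in every alternative.

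In FPKM, 5 of the 63 genes had means of at least 50 in ID8 and 16 had in KMF. In ID8 the highest means were those of Ccnd2 (105 ± 16.2), Ccng1 (103 ± 14.3), Cdk4 (98.1 ± 3.68), Plk2 (90.6 ± 6.97) and Anapc5 (81.0 ± 6.18). The library values of Ccnd2, Ccng1 and Cdk4 overlapped. The libraries of Cdk4 and Plk2 overlapped and those of Plk2 and Anapc5 did not. In KMF they were those of Cks2 (122 ± 9.67), Anapc5 (121 ± 3.48), Cdk4 (120 ± 9.18) and Plk2 (119 ± 1.96), whose library values overlapped, followed by Cks1b (89.3 ± 5.37). Cks2 was thus at the level of Cdk4 in KMF but below it in ID8, where its mean was 43.1 ± 3.12.

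Ratios of related genes within a library were then compared, over 17 pairs that were picked with their values known. Rbl1 over Rbl2 was 0.372, 0.392 and 0.258 in ID8 and 1.57, 1.56 and 1.85 in KMF, a log2 difference of 2.30. Cdc25c over Cdc25a was 0.525, 0.463 and 0.276 in ID8 and 1.37, 1.60 and 1.85 in KMF. Plk1 over Plk2 was 0.155, 0.145 and 0.111 in ID8 and 0.461, 0.455 and 0.548 in KMF. In each of these pairs the gene named before the other gained on it in KMF. Ccne2 over Ccne1 was 1.06, 1.22 and 2.60 in ID8 and 4.14, 4.43 and 4.31 in KMF, with the wide spread in ID8 coming from replicate 3. Cdkn2d over Cdkn2c was 0.416, 0.418 and 0.430 in ID8 and 0.714, 0.754 and 0.688 in KMF, so Cdkn2c stayed the higher inhibitor in both lines. The ratio did not overlap between the lines in 14 pairs and overlapped in 3 (Ccnb1 over Ccnb2, Cks2 over Cks1b and Chek1 over Chek2). Since the pairs were picked and 96.6% of all fitted genes did not overlap either, this count is no result about the pairs. With 3 libraries a line an exact permutation test cannot go below 0.10, which is what a two-sided exact test gave for each of the 14 pairs.

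**Figure D3:**
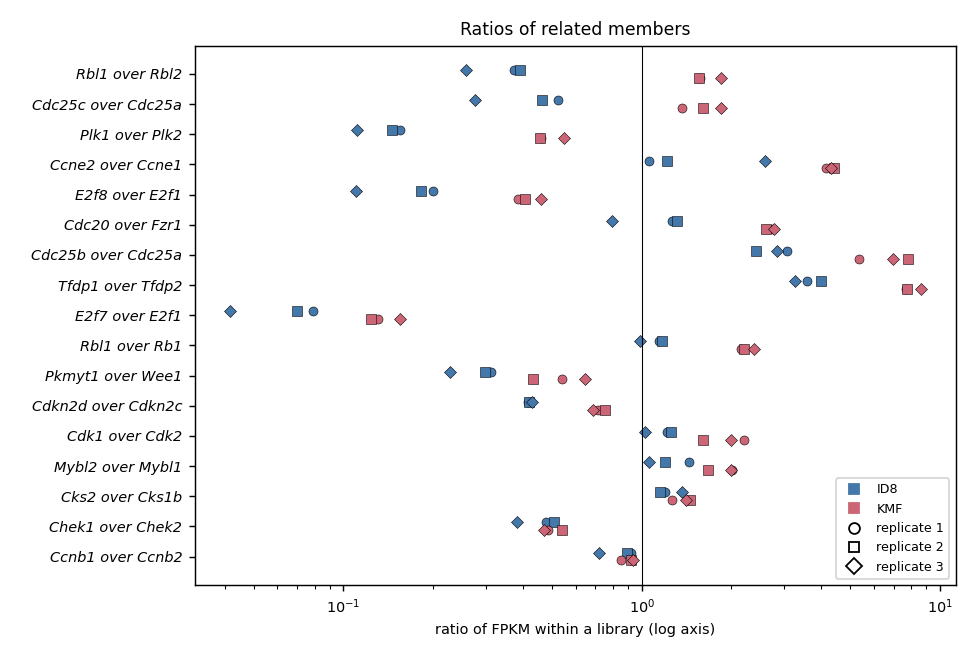
Ratio of the FPKM of related genes within each library (log axis) for 17 pairs, with ID8 in blue and KMF in red. Rbl1 over Rbl2 moves from below 1 in every ID8 library to above 1 in every KMF library, and the 3 lowest rows overlap between the lines.

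Libraries of a line did not hold the cycle genes at equal levels. Among the 48 genes called higher in KMF, ID8 replicate 3 was the lowest ID8 library for 33 (68.8%), against 44.8% of all 3164 genes called higher. KMF replicate 3 was the highest KMF library for 39 (81.2%), against 41.8% of all. Both held for 29 genes. These libraries had the highest passage of their line, 35 for ID8 and 22 for KMF, and KMF replicate 3 was also the deepest. The part of passage and of depth in this was not tested. The median deviation from the line's mean was -0.11 in ID8 replicate 3 and 0.15 in KMF replicate 3 on the log2 scale. In ID8 replicate 2, at passage 24, it was 0.13, and that library was the highest of ID8 for 28 genes (58.3%), against 39.7% of all. Genes for which ID8 replicate 3 was not the lowest numbered 15 and included Ccne2, Ccnc, E2f1, E2f5, Cdc25a, Cdc25b and Plk4. Without ID8 replicate 3 and KMF replicate 3, 44 genes were called higher and 6 were called lower. The median log2 fold change of the 62 fitted genes was then 0.90, and it was 1.03 with all libraries.

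**Figure D4:**
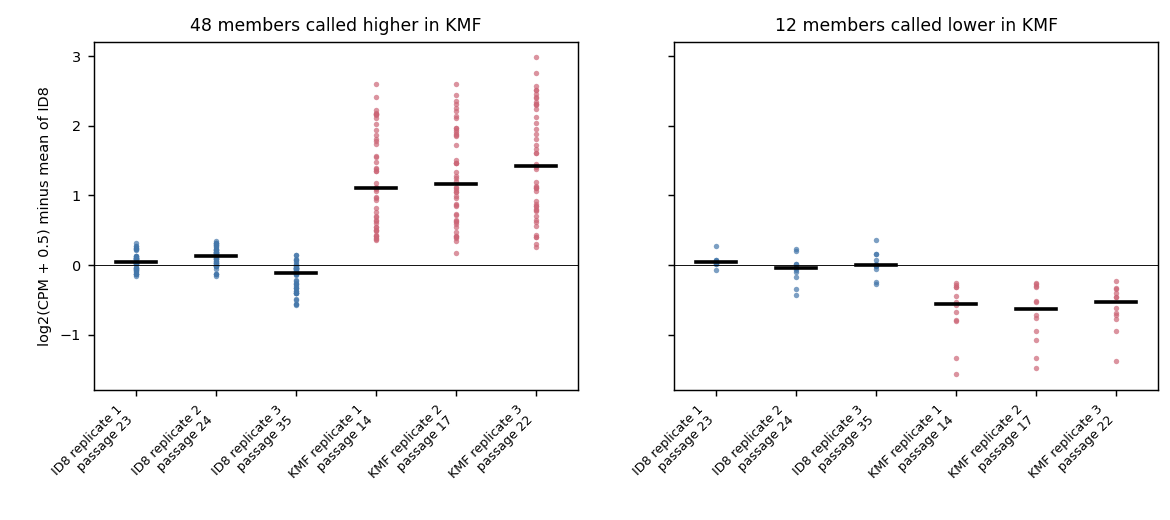
Log2(CPM + 0.5) of each gene minus its mean over the ID8 libraries, for the 48 genes called higher (left) and the 12 called lower (right), with a black bar at the median of each library and the passage below it. ID8 replicate 3 has the lowest median and KMF replicate 3 the highest among the raised genes.

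Other genes of the cycle that the name pattern did not cover were counted in lists. All 8 genes that act beside the mitotic kinases (Aurka, Aurkb, Bora, Tpx2, Incenp, Birc5, Cdca8 and Gtse1) were called higher, with a median log2 fold change of 1.72, led by Cdca8 (2.23 ± 0.19) and Birc5 (2.18 ± 0.20) of the chromosomal passenger complex. All 6 genes of replication licensing and S phase control were called higher, with a median of 1.71, among them Dbf4 (1.83 ± 0.12), the activator of Cdc7, and Cdt1 (1.32 ± 0.19), the target of geminin. The 3 proliferation markers Mki67, Top2a and Pcna were higher by 2.51 ± 0.23, 2.11 ± 0.23 and 1.35 ± 0.10. These values stand beside 45.4% of fitted genes called higher and a median over all genes of -0.23, or 0.20 under the stricter filter, and were already known when the lists were used.

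The partners of the ubiquitin ligases were mixed, as the members had been. Of 12 such genes 8 were listed, 5 higher and 3 lower. Ube2c, the ubiquitin-conjugating enzyme of the APC/C, rose from a mean of 15.8 ± 2.90 to 99.1 ± 11.6 FPKM (log2 2.69 ± 0.16) and the APC/C inhibitor Fbxo5 by 1.66 ± 0.19. The SCF scaffold Cul1 fell by 0.31 ± 0.06 and the F-box gene Btrc by 1.29 ± 0.08. None of 3 further MuvB and DREAM genes was in the table (0 of 3).

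Genes linked to quiescence did not move together. All 6 were listed, with 2 higher, 3 lower and 1 not called. Klf4, a Krüppel-like factor, was higher (log2 2.20 ± 0.14) and so was Sesn3 (1.41 ± 0.17). Sesn1 (-1.40 ± 0.09), Hexim1 (-1.29 ± 0.09) and Klf2 (-0.38 ± 0.11) were lower, and Klf6 was not called (0.50 ± 0.18, edgeR adjusted p = 0.0581).

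Markers of the labelled tissue and of other cells were examined beside these results. Of 11 genes of ovarian surface epithelium and mesothelium 7 were listed. Msln and Lgals2 were higher in KMF, Krt7, Upk3b, Wt1 and Cdh1 were lower and Muc16 was not fitted, and the summed FPKM of the list ranged from 210 to 338 in ID8 and from 344 to 427 in KMF. For leukocytes 1 of 10 markers was listed (Cd74, summed FPKM 0.857 to 1.59 in ID8 and 0.215 to 0.391 in KMF) and for endothelium 1 of 5 (Kdr, at most 0.0699 FPKM in ID8 and 0 in KMF). Of 6 fibroblast markers 3 were listed, Pdgfra, Col1a1 and Dcn, all lower in KMF, with a summed FPKM of 66.1 to 96.6 in ID8 and 13 to 24.2 in KMF. Their part in the cycle gene results was not tested.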

How the data were processed

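Poly-A RNA of 3 ID8 and 3 KMF tumorsphere samples was sequenced as paired-end reads by a service provider. The study's methods name TopHat2 for mapping, whereas the submitters' processing notes list CASAVA 1.8, STAR 2.5, DESeq2 and the build mm10, so the aligner is uncertain. The counting tool and its strand setting are not given in the sources used here.

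Raw counts of each gene in each library were deposited without normalization. The authors derived FPKM by scaling them to gene length and library total. The signal that the authors deposited for a line is the mean of its counts after division by size factors. The authors' DESeq2 log2 fold change, also deposited, was not used, and the authors' p-value and adjusted p-value were used only to learn how the table had been selected. It lists genes with an adjusted p-value of at most 0.0499, which is 7320 of 17359 genes tested (42.2%). Genes outside it were not analysed here.

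Library totals were recovered from count, FPKM and length. The quasi-likelihood test of edgeR 4.0.16 was run on the counts in R 4.3.3 (glmQLFTest, two-sided, TMM on listed genes, filterByExpr, no block), which left 6967 genes, and Benjamini-Hochberg adjustment was taken over 17359 genes. A step tested on simulated data with 7320 genes recovered 87.5% of 200 genes changed by 1 log2 unit, with 4 false calls. The simulation left all other genes unchanged, whereas 92.9% of the fitted genes were called here. It therefore does not test TMM on the listed genes. Alternatives used DESeq2 1.42.0, limma 3.58.1 on log2(FPKM + 1), other scalings and filters, and libraries left out. A count of 3 corresponds to between 0.0903 and 0.1298 CPM.

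Members were all listed genes whose symbol fits the pattern. Values in every library are given for up to 3 risers and 2 fallers by log2 fold change in each role and for genes not called. Promoters came from RefSeq on GRCm38.p6 and overlaps from GENCODE M21. The members and lists were chosen with earlier results of these data known. Tables were handled in Python 3.11.15 with pandas 2.3.3 and numpy 2.4.6, exact tests used scipy 1.17.1, and figures matplotlib 3.10.9.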

Additional observations from a re-analysis of the deposited data

How the results depend on the processing

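The count of genes called higher in KMF was 44 to 49 and the median log2 fold change 0.90 to 1.08 over 14 alternative settings and 1 added after seeing the data. Leaving out each library in turn gave 47 to 48 higher calls, 5 to 11 lower calls and medians of 0.95 to 1.08. The added alternative, without ID8 replicate 3 and KMF replicate 3, gave 6 lower calls; fewer samples entered these fits. Of the 62 fitted genes 51 kept their side of the threshold in every one of the 14 settings in which they were fitted, which for Cdkn1c were 12. The other 11 (Anapc15, Anapc4, Ccnd2, Ccne1, Ccng1, Ccng2, Cdk18, Cdk4, Cdk5, Cdk7 and Tfdp2) changed it in at least 1, with 36 calls lost, 9 gained and 0 reversed in direction. Upper quartile scaling moved fold changes by a median of -0.11 and gave 46 higher and 13 lower calls. The replicate numbers gave no pairing, since deviations of same-numbered samples correlated at 0.08, -0.16 and 0.08 over 6178 genes and not every sample correlated best with its own number. A replicate block gave 49 higher and 9 lower calls, a median of 1.02, 1 lower call among the 5 other CDKs, and 5720 in place of 6470 calls over all genes. With that block Ccng2 was called higher (log2 0.41, edgeR adjusted p = 0.0292) and Ccng1 lower (log2 -0.35, edgeR adjusted p = 0.0496). Depth limits Cdkn1c and Myb, whose ratios rest on few counts. The table holds only called genes, so the share of cycle genes that changed cannot be read from it.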
